A study of Saccharomyces cerevisiae with 6 samples.

Results

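The small subunit of the yeast cytosolic ribosome was followed on 68 of the 9275 non-control probe sets of an oligonucleotide array. A member was any probe set whose annotated gene symbols all have the form RPS, a number and, where a paralog exists, the letter A or B. Of the 68 members, 47 were annotated with 1 gene and 21 with a pair of paralogs at once. Together they reached 55 of the 5923 genes named on the array. A probe set of their own was available for 33 genes, and 22 were measured only together with their paralog. The symbols were checked against the gene identifiers of the R64 table, and 0 member symbols changed.

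RNA came from 2 groups of budding yeast (Saccharomyces cerevisiae), with 3 arrays of a wild-type strain and 3 of a mutant strain labelled Histone H2B 3-32. The numbers name residues 3 to 32 of the amino-terminal tail of H2B, a stretch that is deleted in strains written this way. Both groups were grown in the rich medium YPD to an optical density of 0.5 to 0.7 and lysed for total RNA. Neither the strain background nor the way H2B was carried is stated in the labels. They also do not say that replicates were separate cultures, and the p-values therefore speak only of variation among these 6 arrays, which may be technical. Wild-type array 3, unlike the other wild-type arrays, also served 2 further H2B mutants according to its title.

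The small subunit binds messenger RNA, scans for the start codon and decodes the message. It consists of the 18S ribosomal RNA and one copy each of its proteins, which in yeast are mostly encoded by duplicated genes named A and B. Ribosomal protein genes are transcribed at high rates in growing cells under shared factors such as Rap1, Fhl1, Ifh1 and Sfp1, and their output follows nutrient signals through TOR and protein kinase A. Proteins of the body and platform join the RNA early in assembly, and those of the head join later.

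HTB1, which encodes H2B, was used to see that the strains differ at this gene. Its signal was 1371.8, 1138.4 and 1191 on the wild-type arrays and 16.1, 19.4 and 15.2 on the mutant arrays, a log2 change of -5.98 (limma adjusted p = 8.05e-06). Where its probes lie relative to the deleted stretch is not known here, so the fall does not check the deletion itself. Arrays 3 of both groups stood apart from the other 4. Their median signal was 40 and 40.5 against 28.7 to 31, their 99th percentile 1843 and 1689 against 3182 to 3605, and their hybridisation controls averaged 203 and 196 against 682 to 899. The 2% trimmed means were alike at 125.1 to 125.2. The ratio of 3' to 5' control signal of actin lay between 1.38 and 1.9, and that of the TATA-binding protein between 3 and 3.75.

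The small subunit genes gave high signals on every array and shared the lower level of arrays 3. The median over the 68 members was 2070, 2140 and 1478 on wild-type arrays 1, 2 and 3, and 2088, 2060 and 1367 on mutant arrays 1, 2 and 3. The third array was the lowest in each group. On log2(signal + 2.7), the scale of all log2 values here, array 3 lay below the mean of arrays 1 and 2 for 60 of 68 members in wild type (background over all tested probe sets 31.9%) and for 58 of 68 in the mutant (background 32%). The median of this difference was -0.60 in wild type and -0.61 in the mutant. Over all 7420 probe sets tested it was 0.24 and 0.27.

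**Figure D1:**
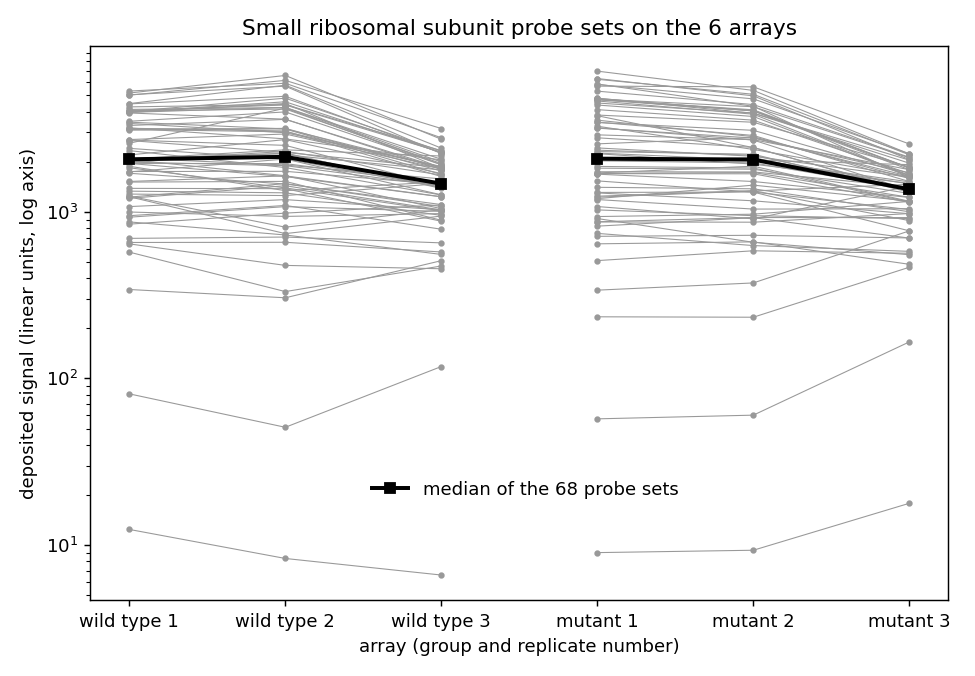
Deposited signal (log axis) of the 68 small subunit probe sets on each of the 6 arrays; grey lines follow 1 probe set within a group and black squares give the median over the 68. The median is 2070 and 2140 on wild-type arrays 1 and 2 and 1478 on array 3, and 2088 and 2060 against 1367 in the mutant.

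The lower level of arrays 3 was more marked for the brighter members. RPS31, whose protein is made fused to ubiquitin, gave 5048.5, 5689.3 and 2238.1 in wild type and 6321.2, 4975.1 and 2061.3 in the mutant. RPS3, a head protein at the entry of the messenger RNA channel, gave 4470.3, 5764.3 and 2415.1 in wild type and 6253.5, 5084.8 and 2201.2 in the mutant. For both genes array 3 was lowest in each group, the groups overlapped, and their log2 changes were 0.00 and 0.06. Among the 34 members above the median level, array 3 differed from arrays 1 and 2 by a median of -0.89 in wild type and -1.11 in the mutant. Among the other 34 the medians were -0.36 and -0.33. The brightest 742 of all tested probe sets held 64 of the members and had medians of -0.34 and -0.36. A lower RNA level in these cultures and a narrower signal range on these arrays cannot be told apart, nor, in RNA from whole cultures, fewer cells with a message and less of it per cell.

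None of the small subunit genes passed the test between mutant and wild type. In the limma fit with the group only, 0 of 68 members had an adjusted p under 0.05, against 0.0135% of the 7420 probe sets tested (HTB1 alone). At an unadjusted p under 0.05 this fit had 0 members higher and 0 lower, against 1.37% of all probe sets higher and 1.06% lower (2.44% in either direction). With the replicate number as a block it called 0 of 68 members as well, against 0.364% of all probe sets (27 in number). At an unadjusted p under 0.05 the fit with the block had 5 of 68 members lower and 0 higher, against 7.78% of all probe sets lower and 6.09% higher. All 68 members passed the filter on dim probe sets.

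The changes of the members were small in size. The median log2 change was -0.04 (SD of the 3 pair medians 0.09, n = 3 pairs), the quartiles were -0.11 and 0.02, and the extremes -0.42 and 0.30. Over all tested probe sets the median was -0.03 and the quartiles -0.15 and 0.11. The median rested on which arrays entered: it was -0.28 without wild-type array 3, 0.17 without mutant array 3, and between -0.19 and 0.06 without one of the others. Within replicates 1 and 2 alone it was -0.03, and in pair 3 it was -0.12. Each fit that left out arrays had 0 members called.

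How large a change the arrays could have missed depends on the fit. With the group only, the median 95% interval of a member reached 0.71 to either side of its log2 change. It lay inside a 1.5-fold change in both directions for 13 of 68 members (background 24.8%). With the replicate block the median interval reached 0.25 to either side, and it lay inside 1.5-fold for 63 of 68 members (background 74.3%). The 5 others were RPS16A/RPS16B (6558_i_at), RPS7A (8479_at), RPS22B (9946_at), RPS12 and the dim RPS10B probe set. The intervals with the block depend on the pairing of the arrays, which for replicates 1 and 2 rests on the labels alone. They rest on 2 residual degrees of freedom beside 7.47 from the variance prior taken over all probe sets. RPS28A (8368_i_at) counted as inside, at -0.45 to 0.52, although its pair differences were -0.75, 0.17 and 0.70. Larger changes of single members are therefore not excluded.

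The sign of the members' changes differed between pairs of same-numbered arrays. In pair 1 the mutant was above wild type for 45 of 68 members (background 44.5%), with a median log2 change of 0.05. In pair 2 it was above for 16 of 68 (background 44.6%), with a median of -0.09. In pair 3 it was above for 17 of 68 (background 48.6%), with a median of -0.12. In pair 1 the 34 brighter members had a median of 0.17, with 31 of 34 above 0, and the 34 dimmer ones -0.15, with 14 of 34 above 0. In pairs 2 and 3 the brighter members had medians of -0.13 and -0.15 and the dimmer ones -0.02 and -0.05. The order of bright and dim members in pair 1 was thus opposite to that in pairs 2 and 3. The control probe sets for 18S ribosomal RNA averaged 88.5, 124 and 29.3 on the wild-type arrays and 385, 169 and 34.5 on the mutant arrays. They were highest on mutant array 1, and their part in the changes of pair 1 was not tested.

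**Figure D2:**
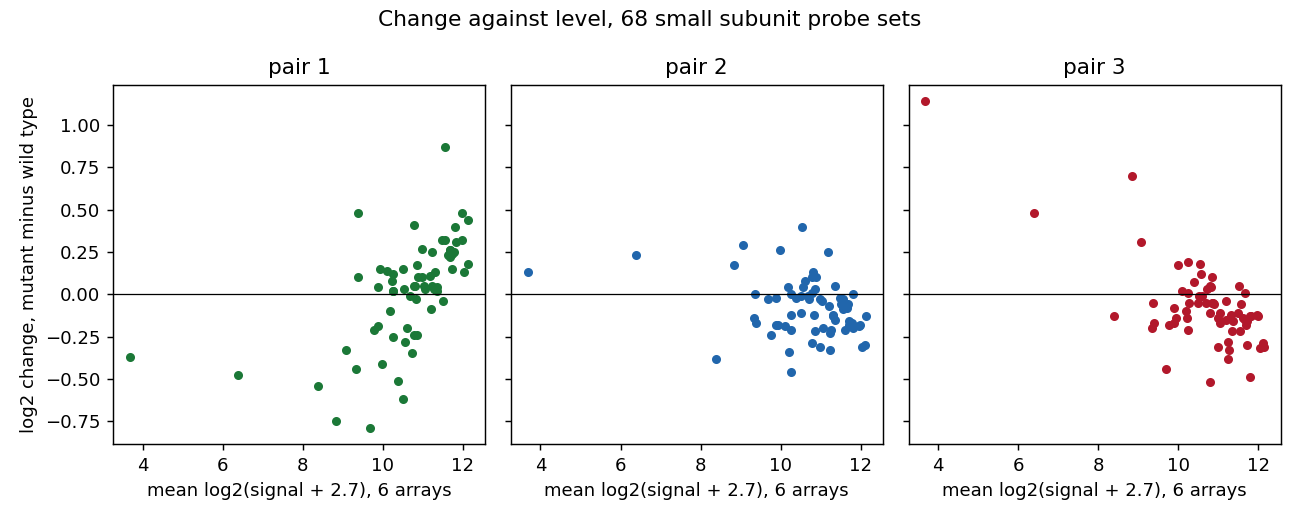
Log2 change of mutant over wild type in each pair of same-numbered arrays (vertical axis) against the mean log2 level over 6 arrays (horizontal axis), 1 point for each of 68 small subunit probe sets. In pair 1 the brighter members lie mostly above 0 (median 0.17) and the dimmer ones below (median -0.15), while in pairs 2 and 3 the brighter members lie mostly below 0.

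Members with the same sign in all 3 pairs were 11 below wild type (background 21.6%) and 3 above (background 14.8%). The groups did not overlap for 2 members, both lower in the mutant (background 3.91% lower and 3.48% higher). These were 6558_i_at for RPS16A and RPS16B, and the RPS9A probe set. The RPS9A signals were 998.5, 939.5 and 976.7 in wild type and 872.4, 925 and 924.2 in the mutant. All 3 mutant arrays lay below all wild-type arrays, by little at the nearest values, and the log2 change was -0.10 (95% interval -0.44 to 0.24, limma adjusted p = 1). RPS9A encodes a protein of the body that binds 18S RNA early.

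**Figure D3:**
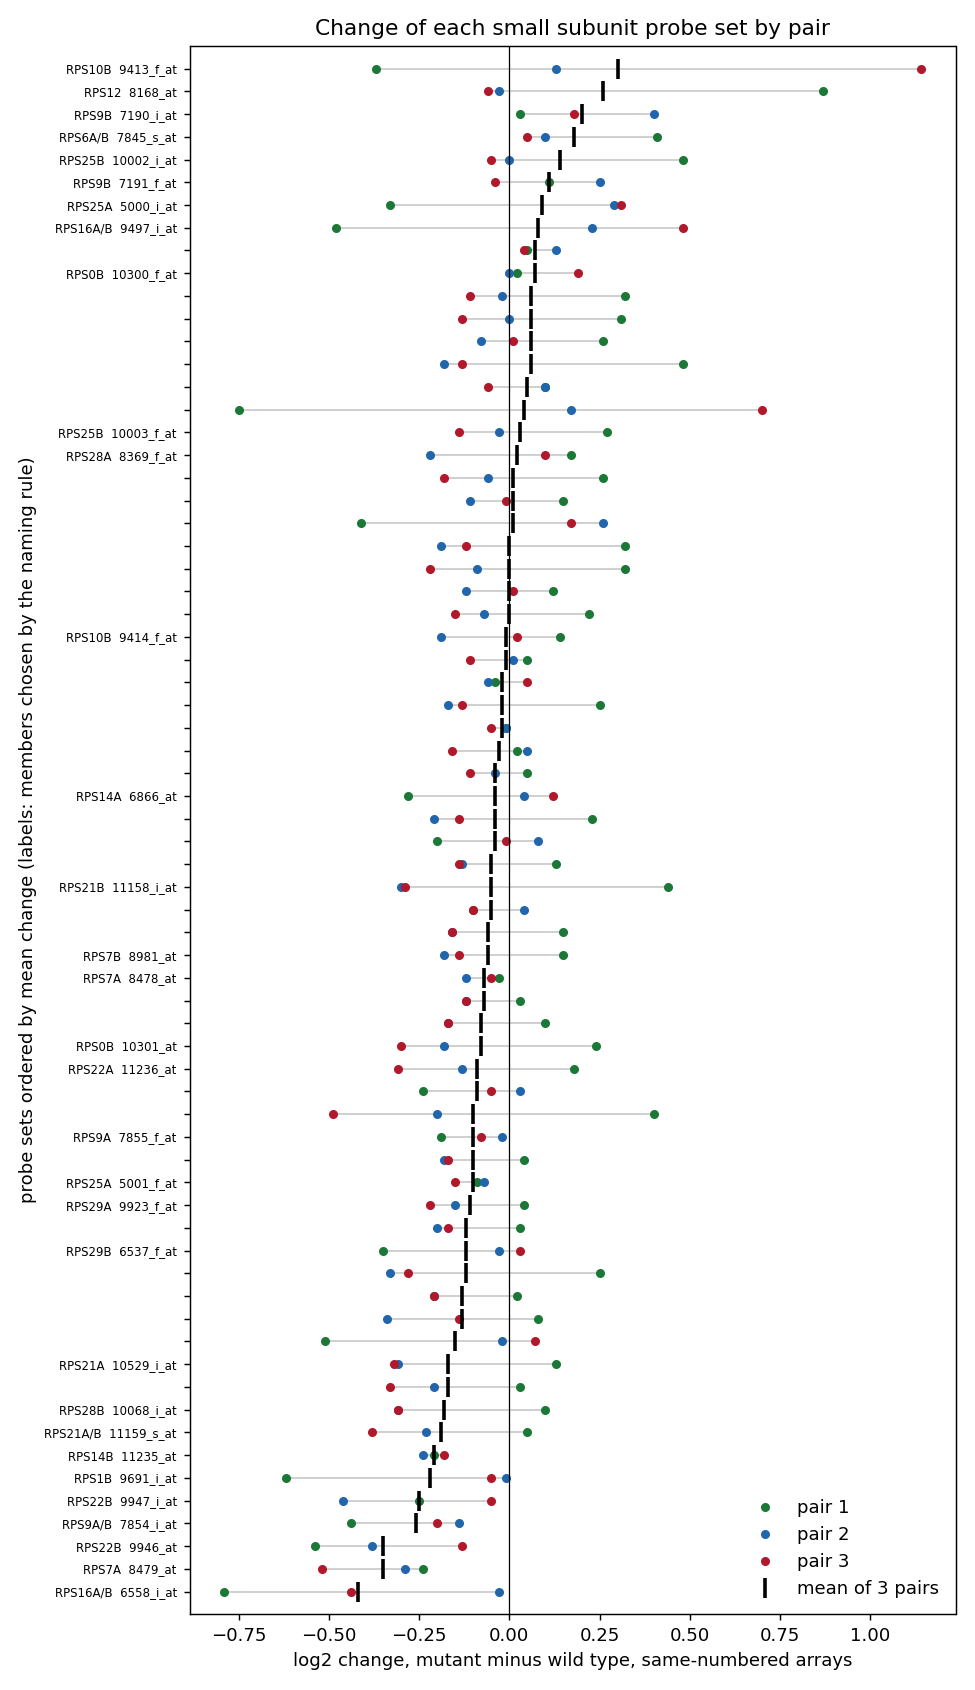
Log2 change of mutant over wild type for each of the 68 small subunit probe sets, ordered by the mean, with names for the members chosen by the naming rule; coloured points are the 3 pairs of same-numbered arrays and black bars their mean. Means run from -0.42 (RPS16A/RPS16B, 6558_i_at) to 0.30 (RPS10B, 9413_f_at), and most rows have points on both sides of 0.

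Proteins of the head were measured on 26 probe sets. Their median log2 change was 0.00, with 13 above and 13 below 0 (over all tested probe sets 3345 above and 4075 below), and 0 passed. The lowest value of all members belonged to RPS16, a head protein whose tail reaches the transfer RNA in the ribosome's P site. Both RPS16 genes share 4 probe sets. The lowest of these, 6558_i_at, gave 1233, 740.7 and 944 in wild type and 713.4, 723.7 and 697.5 in the mutant. Wild-type array 1 was high, wild-type array 2 was close to the mutant, and the groups did not overlap (log2 -0.42, 95% interval -0.91 to 0.07, limma adjusted p = 1, and 0.229 with the replicate block). The other 3 RPS16 probe sets had log2 changes of -0.02, 0.01 and 0.08. Probe sets annotated with the same genes thus differed in point value, though their 95% intervals overlapped. The one at 0.08, 9497_i_at, was dim: 80.8, 50.9 and 117.9 in wild type and 57.2, 60.2 and 165.7 in the mutant. It was highest on array 3 of each group.

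RPS12, a protein of the beak of the head, had the largest positive change among bright members. It gave 2582.8, 4196.6 and 1923.5 in wild type and 4736.4, 4101 and 1842.3 in the mutant. Wild-type array 1 was well below mutant array 1, and the arrays of pairs 2 and 3 were alike (log2 differences 0.87, -0.03 and -0.06 in pairs 1, 2 and 3). The mean log2 change was 0.26 (95% interval -0.79 to 1.31, limma adjusted p = 1). Without replicate 1 it was -0.05 in the fit with the block.

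RPS10, a head protein near the entry of the messenger RNA channel, had 2 probe sets for each copy. For RPS10B their point values were furthest apart. The one named 9413_f_at was dim at 12.4, 8.3 and 6.6 in wild type and 9, 9.3 and 17.8 in the mutant. Mutant array 3 alone was above all wild-type arrays (log2 0.30, 95% interval -0.42 to 1.02, limma adjusted p = 1). The bright one, 9414_f_at, gave 1076.3, 1184.8 and 1029.9 in wild type and 1186.1, 1039.7 and 1044.6 in the mutant. These values overlapped throughout (log2 -0.01). The 2 probe sets of RPS10A had log2 changes of 0.01 and 0.05.

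RPS28A had a bright and a dim probe set. The dim one, 8368_i_at, gave 573.4, 332.3 and 473.3 in wild type and 338.9, 374.5 and 769.2 in the mutant, with pair differences of -0.75, 0.17 and 0.70. Its mean log2 change of 0.04 was the mean of values on both sides of 0. The bright one, 8369_f_at, had a log2 change of 0.02. RPS28 sits between head and platform beside the exit of the messenger RNA. RPS28B, whose protein is known to limit its own messenger RNA through the decapping factor Edc3, had log2 changes of -0.18 and -0.13 on its 2 probe sets.

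The remaining head genes lay between -0.12 and 0.14. RPS25B, a head protein needed for some internal initiation, gave 655.2, 657 and 574.5 in wild type and 912.2, 656.9 and 553.5 in the mutant on its dimmer probe set. Only mutant array 1 was above the wild-type arrays (log2 0.14, 95% interval -0.35 to 0.63). The brighter RPS25B probe set had a log2 change of 0.03. The 2 probe sets of RPS25A differed in sign, with -0.10 for the brighter and 0.09 for the dimmer. RPS29A and RPS29B, small zinc-binding proteins, had log2 changes of -0.11 and -0.12. RPS15, RPS20, RPS31 and RPS3, each encoded by 1 gene, lay between -0.04 and 0.06. The shared probe sets of RPS18 and RPS19, of which RPS19 is needed in late maturation of the subunit, had -0.06 and -0.12.

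Proteins of the body and platform were measured on 42 probe sets. Their median log2 change was -0.06, with 11 above and 31 below 0, and 0 passed. Over all 7420 probe sets tested, 3345 were above and 4075 below 0. The split differed between pairs: 29 of the 42 were above 0 in pair 1, but 9 in pair 2 and 9 in pair 3. A difference from the head was not tested. The lowest body and platform values were those of RPS7A and RPS22B probe sets. RPS7, which is specific to eukaryotes and lies in the body, had 2 unmarked probe sets for each copy. On 8479_at RPS7A gave 2025.4, 2307.9 and 1666 in wild type and 1713.5, 1881.3 and 1157.6 in the mutant. Each mutant array was below the wild-type array of its number, though the groups overlapped (log2 -0.35, 95% interval -0.95 to 0.24, limma adjusted p = 1, and 0.2 with the replicate block). The second RPS7A probe set, 8478_at, had a log2 change of -0.07. The RPS7B probe sets had -0.10 and -0.06.

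RPS22, a body protein that binds 18S RNA directly, had 3 probe sets for its B copy. The dimmest, 9946_at, gave 342, 305 and 509.5 in wild type and 234.5, 233.1 and 465.3 in the mutant. Array 3 was the highest in each group, and each mutant array was below the wild-type array of its number (log2 -0.35, 95% interval -1.10 to 0.40, limma adjusted p = 1, and 0.204 with the replicate block). On 9947_i_at the signals were 1279.5, 1253.3 and 1480.9 in wild type and 1077, 908.2 and 1428.1 in the mutant, again with array 3 highest and overlapping groups (log2 -0.25). On 9948_f_at the log2 change was -0.13 and array 3 was the lowest in each group. RPS22A had a log2 change of -0.09. Its neighbour on the chromosome is RPS14B.

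RPS14 is a platform protein that is known to bind the RNA of RPS14B and hold down its splicing. RPS14B gave 948.7, 1093.3 and 787 in wild type and 821.2, 923.2 and 696.1 in the mutant. Each mutant array was below the wild-type array of its number, by log2 -0.21, -0.24 and -0.18. With the group only, its change was -0.33 without wild-type array 3 and -0.10 without wild-type array 2 or mutant array 3. Its groups overlapped (mean log2 -0.21, 95% interval -0.66 to 0.24, limma adjusted p = 1, and 0.365 with the replicate block). RPS14A had a log2 change of -0.04.

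RPS1 is a platform protein at the exit of the messenger RNA. RPS1B gave 1879.4, 1341.2 and 1514.6 in wild type and 1226.1, 1335.4 and 1464.5 in the mutant. Wild-type array 1 was above the other 5 arrays, and the negative mean came mostly from pair 1 (log2 -0.62, -0.01 and -0.05, mean -0.22, 95% interval -0.69 to 0.24). RPS1A had a log2 change of -0.12, and the probe set shared by both copies -0.15.

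RPS9 had its own probe sets for both copies and 1 shared. RPS9B gave 1840.5, 1393.7 and 1014.7 in wild type and 1875.4, 1835.4 and 1146.8 in the mutant on 7190_i_at. Each mutant array was above the wild-type array of its number, and the groups overlapped (log2 0.20, 95% interval -0.50 to 0.90). The second RPS9B probe set, 7191_f_at, had a log2 change of 0.11. The shared probe set 7854_i_at gave 870.7, 726.9 and 555.4 in wild type and 643.1, 660.8 and 484.6 in the mutant (log2 -0.26, 95% interval -0.77 to 0.26). It thus lay on the other side of 0 from RPS9B, with overlapping groups.

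RPS6, the body protein that is phosphorylated downstream of TOR, was measured for both copies together. It gave 1738.3, 2077.3 and 1266 in wild type and 2303.1, 2219.6 and 1313.6 in the mutant. All 3 pairs had the mutant above wild type, by log2 0.41, 0.10 and 0.05, and the groups overlapped (mean log2 0.18, 95% interval -0.52 to 0.89, limma adjusted p = 1). RPS24, also shared, was the third member above wild type in all pairs (log2 0.07).

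RPS21 is a small protein next to RPS0. The probe set shared by both copies gave 3095.2, 3174.1 and 1758.6 in wild type and 3202.5, 2700.2 and 1349.2 in the mutant. Array 3 was the lowest in each group and the groups overlapped (log2 -0.19, 95% interval -1.13 to 0.75). RPS21A and RPS21B on their own had log2 changes of -0.17 and -0.05. RPS0B had probe sets on both sides of 0, at -0.08 (10301_at) and 0.07 (10300_f_at). Those of RPS0A were at -0.01 and -0.05, and the shared one at -0.02. RPS26A, at the exit of the messenger RNA, had -0.10 and 0.00, and RPS26B -0.08.

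The rest of the body and platform stayed within log2 0.17 of no change in its point values. RPS2, at the entry of the messenger RNA channel, and RPS13, which bridges to the large subunit, had log2 changes of 0.00 and 0.06. The zinc-binding RPS27A and RPS27B had 0.00 and 0.01. The shared probe sets of RPS23, which lies beside the decoding centre, had -0.09, -0.03 and 0.06. Those of RPS4 and RPS30 lay between -0.17 and 0.06. Their intervals with the group only were wide, as for RPS2 (-1.06 to 1.07).

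Of 13 genes with 2 or 3 probe sets of their own, 3 had probe sets whose changes differed in sign (RPS0B, RPS10B and RPS25A). The gap between probe sets of a gene was 0.29 for RPS7A and 0.22 for RPS22B. For RPS10B it was 0.31, but 1 of its probe sets, 9413_f_at, lay under the median signal of every array and its change was 0.15 with an offset of 16. Members with no mark of any kind in their name numbered 20, with a median log2 change of -0.04. Those with the mark i (14), f (22) and s (11) had medians of -0.11, -0.01 and -0.06, and 1 member had the mark g. Probe sets on 1 gene and on a paralog pair had the same median, -0.04.

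The A and B copies of a protein could be set against each other for 13 pairs in which each copy had a probe set of its own. Within each array the log2 value of B was taken from that of A, which removes what an array does to both alike. It does not remove an effect that depends on level: array 3 differed from arrays 1 and 2 by log2 -0.81 and -1.15 for RPS22A in wild type and mutant, but by 0.23 and 0.53 for RPS22B (9947_i_at). The levels of A and B themselves were not compared, since probe sets differ in response. Many of these probe sets have a mark in their name, and for RPS9, RPS10, RPS25 and RPS29 both have f, a mark of shared sequence. A probe set that also reads the other copy would draw the changes of A and B together. How far this applies was not tested. For 0 of the 13 pairs did the mutant and wild-type values separate without overlap, against 0% of the 31 pairs of all ribosomal protein genes. With unmarked probe sets alone 5 pairs remained, and 0 of them separated. The median size of the difference between A and B changes was 0.11 for the small subunit and 0.13 for the 18 pairs of the large subunit and stalk. With 3 arrays against 3, the exact permutation test cannot give a p below 0.1, and 0 pairs reached it on the values as deposited.

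The largest mean difference over all 6 arrays was that of RPS9, where the change of A was -0.10 and that of B 0.11. Their difference was -0.31, -0.28 and -0.04 in pairs 1, 2 and 3 (mean -0.21 ± 0.15, SD, n = 3, two-sided exact permutation p = 0.5). It had the same sign in each pair, and was -0.44 without mutant array 3 and -0.05 without mutant array 1. RPS28 followed in the opposite direction, with 0.07, 0.09 and 0.41 (mean 0.19 ± 0.19, SD, n = 3, exact p = 0.2). RPS25 and RPS21 also kept 1 sign, with means of -0.14 and -0.12 that came mostly from pair 1 (-0.36 and -0.31). For RPS14 the mean was 0.17, from -0.07, 0.28 and 0.30. For RPS22 it was 0.17 as well, from 0.43, 0.33 and -0.26, so pair 3 opposed the other pairs. Without mutant array 3 the RPS22 value was 0.73, larger than any mean over 6 arrays. RPS7 and RPS29 had the smallest differences, -0.01 ± 0.15 and 0.01 ± 0.34 (SD, n = 3). The spread of RPS29 shows that a mean near 0 did not stand for 3 equal values. The other 5 pairs, RPS0, RPS1, RPS10, RPS26 and RPS27, had means between -0.02 and 0.11 with both signs among their pairs.

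**Figure D4:**
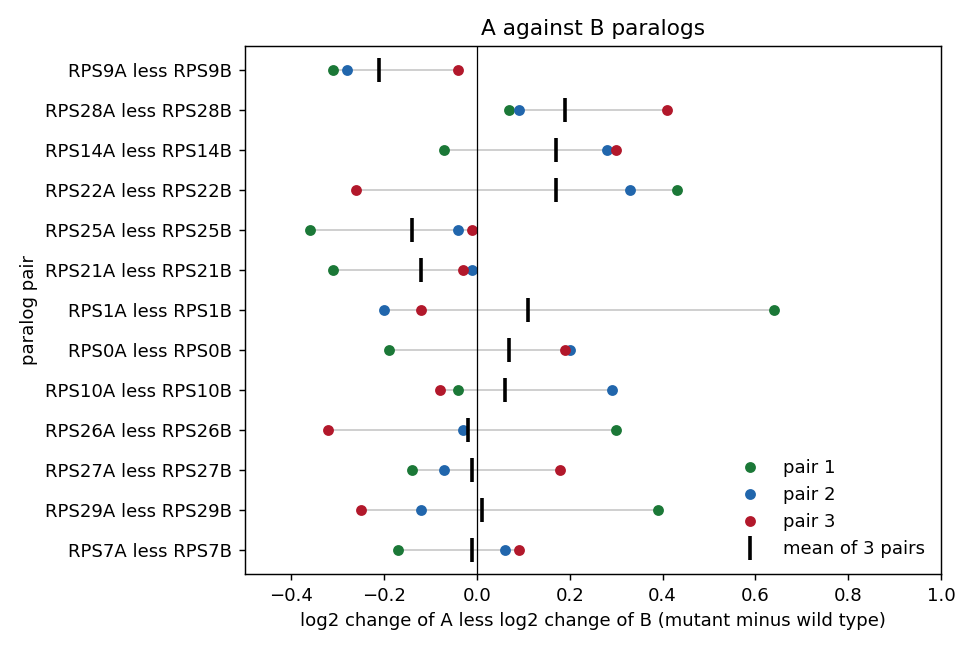
Log2 change of the A paralog less that of the B paralog for 13 small subunit pairs; coloured points are the 3 pairs of same-numbered arrays and black bars their mean. Means run from -0.21 (RPS9) to 0.19 (RPS28), and 4 of the 13 pairs have all 3 points on 1 side of 0.

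Genes of the large subunit had medians of the same sign as the small subunit in each pair. The large subunit and stalk genes (96 probe sets) had median log2 changes of 0.11, -0.11 and -0.10 in pairs 1, 2 and 3, beside 0.05, -0.09 and -0.12 for the small subunit. Array 3 lay below arrays 1 and 2 by a median of -0.69 in wild type and -0.79 in the mutant for the large subunit. Mitochondrial small subunit genes (31 probe sets) were on the other side in this respect, with 0.53 and 0.62, and had a median change of -0.17. In both lists 0 probe sets passed with or without the block. The smallest p-values with the group only were those of RPL9B (log2 -0.67) and RPL7B (-0.26) in the first list, and RSM26 (-0.31) and MRP1 (-0.41) in the second. A difference between the lists was not tested.

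**Figure D5:**
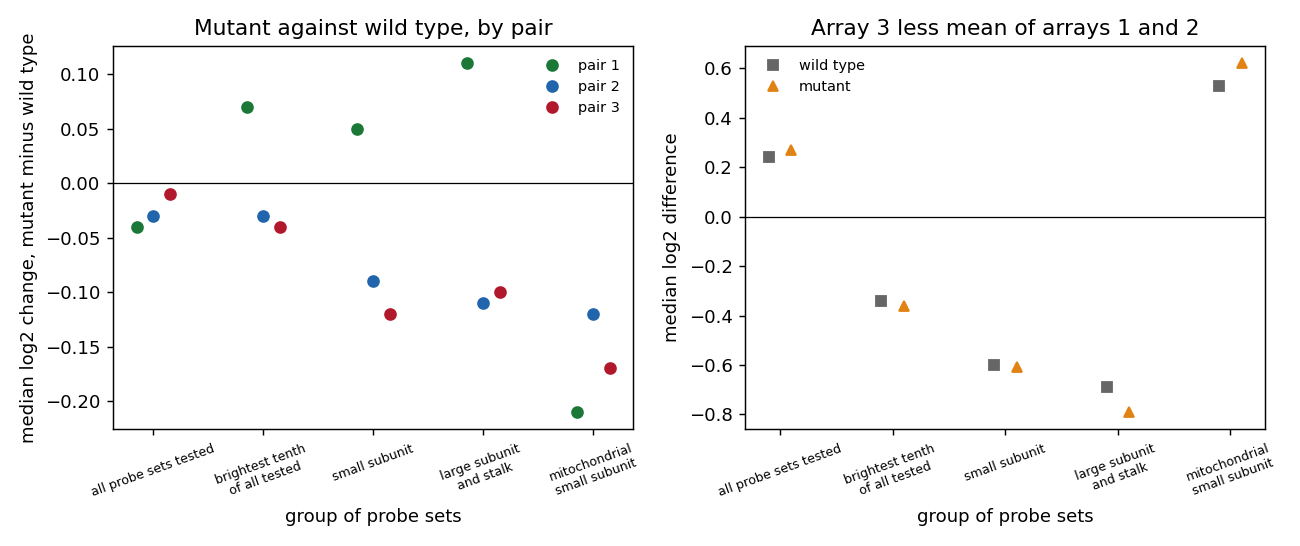
Left: median log2 change of mutant over wild type in each pair for 5 groups of probe sets. Right: median log2 difference of array 3 from the mean of arrays 1 and 2 in each group. The cytosolic small and large subunits share the sign of the median in each pair and lie below 0 on the right (-0.60 and -0.61, -0.69 and -0.79), and the mitochondrial small subunit lies above 0 (0.53 and 0.62).

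Genes that act on the small subunit or its genes also had 0 probe sets that passed in either fit. Regulators of ribosomal protein genes (31 probe sets) had a median log2 change of 0.02. Those with the smallest p were RIM15, a kinase of nutrient signalling (0.25), and TOR1 (0.41), whose signal was low, with a mean of 7.63 ± 2.4 in wild type and 11.1 ± 3.27 in the mutant (SD, n = 3). Assembly and export factors of the small subunit (21 probe sets) had a median of 0.00, and FAP7, an ATPase that acts with Rps14 (0.12), and TSR4, a chaperone of Rps2 (-0.14), had the smallest p. Proteins that bind the small subunit (29 probe sets) had a median of -0.02. In this list GCD11 (-0.28) and SUI2 (0.20), both subunits of initiation factor eIF2, had the smallest p, with opposite signs.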

How the data were processed

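The authors deposited 1 signal intensity per probe set and array on a linear scale, made with MAS5 per the submitters' processing notes. Neither the MAS5 version and settings nor detection calls were used or stated here. The columns shared a trimmed mean and were used as deposited. The 60 control probe sets were left out. Values were taken as log2(signal + 2.7), with the 10th percentile over non-control probe sets and arrays as the added constant, which understates changes of dim probe sets. The 1855 probe sets with a mean log2 value under the 20th percentile were not tested.

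The other 7420 were fitted with limma 3.58.1 in R 4.3.3 (lmFit, eBayes with trend), two-sided, with Benjamini-Hochberg adjustment over all 7420 and a threshold of 0.05. The group was the only term, and the replicate number as a block was an alternative. The replicate numbers, which come from the labels, were taken to pair the arrays. Deviations of same-numbered arrays from their group means correlated at 0.49, 0.59 and 0.86 for replicates 1, 2 and 3. Wild-type array 1 correlated with mutant array 2 at 0.54, and wild-type array 2 with mutant array 1 at 0.61. Each was above the same-numbered value of that wild-type array. Over the members alone the same-numbered values were 0.29, 0.83 and 0.91, and the 2 crossed values were 0.35 and 0.87. The correlations thus set replicate 3 apart but do not support the pairing within replicates 1 and 2. The differences within pairs 1 and 2 and the fits with the block rest on the labels there. A and B paralogs were compared on the brightest probe set of each by an exact permutation test. The number of arrays limits the precision. Genes came from the platform's annotation: 6504 probe sets had 1 gene, 328 several and 2443 none. No columns were identical.

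Named members were the 8 largest rises and 8 largest falls, the 6 pairs that differed most and the 2 that differed least, the 4 shared probe sets with the largest change, genes whose probe sets differ in sign, and in other lists the 2 smallest p where none passed. Most other members are named as well, and some genes are not reported here by name. The members and lists were chosen with earlier results of these data known. The groups by brightness were added after the values were seen. A split by introns was not made, because the reference tables used here hold no exons. The fits were tested on simulated data, where the fit with the group only missed most of the smaller changes. Those data had the same replicate deviations in both groups and a common noise level for all probe sets. A loss without the block was thus built in, and the simulation does not give the power on these arrays.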

Additional observations from a re-analysis of the deposited data

How the results depend on the processing

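Under 0 of 24 fits, the one reported and 23 alternatives, was a small subunit probe set called. The alternatives were the replicate block, quantile and median scaling, offsets of 1 and 16, no filter and a stricter one, other variance priors, other choices of probe sets, leaving out each array or pair, replicate 3 as a batch, and replicates 1 and 2 alone. Calls over the whole table rose from 0 higher and 1 lower to 16 and 11 with the replicate block, 26 and 25 with replicate 3 as a batch, and 6 and 5 with replicates 1 and 2 alone. Leaving out single arrays gave 0 higher and 1 lower, and leaving out pairs under the block 8 to 11 higher and 5 to 7 lower. The replicate block changed no call of a member. The median change of the members, -0.04, ran from -0.28 to 0.17 when single arrays were left out, and was -0.05 to -0.01 under the block, the scalings, the offsets, the filters, the other choices of probe sets and replicates 1 and 2 alone. It was not computed without a pair, with replicate 3 as a batch or with the other variance priors. Pairs of A and B without overlap numbered 1 with quantile normalization, which was RPS9 (log2 -0.27, exact permutation p = 0.1). They numbered 0 to 3 when an array was left out, where fewer arrays make separation easier.

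No named value passed the test, and the signs of many turned when an array or pair was left out. The ranges of log2 change were then -0.15 to 0.23 and -0.38 to 0.33 for RPS0B (10300_f_at and 10301_at), -0.12 to 0.63 and -0.08 to 0.08 for RPS10B (9413_f_at and 9414_f_at, the second -0.07 to 0.05 without single arrays), -0.05 to 0.68 for RPS12, -0.31 to 0.18 for RPS14A, -0.41 to 0.36 for RPS16 (9497_i_at), -0.50 to 0.25 for RPS21A, -0.42 to 0.43 for RPS21B, -0.47 to 0.19 for their shared probe set, and -0.36 to 0.30 for RPS22A. They were -0.02 to 0.30 and -0.32 to 0.13 for RPS25A (5000_i_at and 5001_f_at, the first -0.01 to 0.24 without single arrays), -0.06 to 0.30 and -0.09 to 0.20 for RPS25B (10002_i_at and 10003_f_at), -0.19 to 0.18 for RPS28A (8369_f_at), -0.35 to 0.07 for RPS28B (10068_i_at), -0.39 to 0.22 for RPS29A, -0.36 to 0.09 for RPS29B, -0.01 to 0.45 for RPS6, -0.27 to 0.14 for RPS7A (8478_at), and -0.02 to 0.43 and -0.03 to 0.32 for RPS9B (7190_i_at and 7191_f_at). The larger falls kept their sign but moved by over 1.5 times: RPS16 6558_i_at from -0.61 to -0.23, RPS7A 8479_at from -0.49 to -0.14, RPS22B from -0.68 to -0.13 (9946_at) and -0.43 to -0.11 (9947_i_at), RPS9 7854_i_at from -0.43 to -0.11, RPS1B from -0.33 to -0.03 and RPS14B from -0.33 to -0.10. Without single arrays, the change of A less that of B ran from -0.18 to 0.73 for RPS22, -0.44 to -0.05 for RPS9, 0.11 to 0.26 for RPS28, 0.02 to 0.38 for RPS14, -0.27 to -0.06 for RPS25 and -0.19 to -0.05 for RPS21. With replicates 1 and 2 alone the sign turned for RPS0B 10301_at (0.03), RPS10B 9413_f_at (-0.12), RPS16 9497_i_at (-0.12), RPS21B (0.07), RPS22A (0.03), RPS25A 5000_i_at (-0.02) and RPS28A 8369_f_at (-0.03). Scaling to a common median turned RPS10B 9414_f_at to 0.03. The cause was not tested.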
